A study of Mus musculus with 8 samples.

Results

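Outside the classic markers of alveolar type II cells, 9 of the 32285 genes in the matrix are described here that were among those most raised in the nuclei rich in type II RNA in this culture: Adam19, Tspan11, Ly6c2, Slco4c1, Il33, Slc24a4, Atp6v1c2, Inpp4b and Entpd1. They were picked from the RNA of these same nuclei, for how much higher they were in nuclei with type II transcripts. Their rise with Sftpc is therefore given as a description, and no test was run. The 9 symbols were each found once in the matrix and all passed the minimum of 30 UMIs (unique molecules counted) over all nuclei.

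The nuclei came from mouse alveolarspheres, hollow colonies grown without serum or feeder cells from type II cells of young and old mice. On day 9 the cells received the adeno-associated virus AAV9_Cre, which carries Cre recombinase (genotype Cre, treatment control), or AAV9_Sox9Cre, which carries Sox9 together with Cre (genotype Sox9Cre, treatment Sox9 overexpression). All cultures then spent 4 days in medium that induces type I differentiation, and live cells positive for tdTomato, a red fluorescent reporter, were sorted for a multiome assay that reads RNA and open chromatin (ATAC) in the same nucleus. The labels list 2 RNA and 2 ATAC samples for each virus but no ages or sexes of single samples, and the data are 1 pooled matrix whose barcodes carry 4 prefixes, here called libraries A, B, C and D in sorted order. No label ties a prefix to a virus, so each library is given by itself and no virus groups are compared. After 25 nuclei were removed by filters 7199 remained, 1266, 766, 3236 and 1931 in libraries A to D, with median depths of 9802 to 11733 UMIs per nucleus, and 20 barcode sequences occurred in more than 1 library.

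Type II cells make, store and secrete the surfactant that keeps alveoli open, and they can flatten into type I cells, the thin cells of gas exchange, passing through a keratin-rich transitional state. Surfactant lipid and protein are packed in lamellar bodies, acidic storage organelles loaded by the lipid transporter Abca3 and filled with surfactant proteins such as Sftpc. The 9 genes encode surface and secreted proteins (Il33, Entpd1, Adam19, Ly6c2, Tspan11), transporters and a proton pump subunit (Slco4c1, Slc24a4, Atp6v1c2) and a lipid phosphatase (Inpp4b).

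Nuclei were ranked by Sftpc UMIs per 10000 UMIs and cut into deciles within each library, decile 10 being the richest. Every level below is the summed UMIs of a gene per 10000 summed UMIs, with an exact Poisson 95% interval that covers counting error only. From decile 1 to decile 10, 9 of 9 members rose at least 2-fold, by 7.92-fold to 153-fold, where 5.53% of 16505 genes did so; since the members were chosen on this contrast, nothing is read from that share. By this fold they ranked from 2 (Adam19) to 95 (Il33) of the 16505, and 70 genes that are neither members nor on the type II list stood above Il33. The median log2 fold was 4.25 over the members and -0.29 over all genes tested. All 22 genes of the type II list were at least 2-fold higher in decile 10 than in decile 1; one of them is Sftpc, which set the deciles, and the other 21 did not. Of 15 transitional genes 13 were lower and 2 lay between. All 11 airway secretory genes were lower. Of 18 type I genes only 7 were lower and 11 lay between, among them Ager (19.9 UMIs per 10000 in decile 1 and 21.9 in decile 10) and Cldn18 (1.53-fold). Decile 1 was not the richest in type I RNA, however. The type I genes summed to 86.2 UMIs per 10000 in decile 1, 139 in decile 5 and 67.5 in decile 10. Decile 1 held more transitional RNA (116 against 28.4 in decile 10) and airway secretory RNA (88.0 against 1.58). The airway RNA was at only 1.78 in library A and 1.52 in B.

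Among the surface and secreted proteins, Adam19, a membrane-anchored metalloprotease that cuts other surface proteins, had the largest pooled fold, with an interval that overlaps that of Ly6c2. The gene lies at chr11:46054502-46147347 (RefSeq positions, GRCm38.p6, here and below). Its decile 10 levels were 0.821, 0.836, 0.811 and 0.744 UMIs per 10000 in libraries A to D. In decile 1 it had 0, 1, 2 and 3 UMIs in that order. The 4 libraries were close to each other at the top and near 0 at the bottom, a pooled rise of 153-fold (95% interval 69.9 to 418) and of at least 45.7-fold in A, taking the floor of 3 counts for 0 in that library.

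Ly6c2, a small lipid-anchored surface protein better known from monocytes (chr15:75108161-75112066), had decile 10 levels of 0.477, 0.592, 0.526 and 0.588 UMIs per 10000 in libraries A to D. Decile 1 held 0, 1, 4 and 1 UMIs in that order of libraries. The pooled rise was 104-fold (47.6 to 286). Its close relative Ly6c1 was present throughout, at 1.72 UMIs per 10000 in decile 1 and 3.17 in decile 10 (1.85-fold). As a share of the UMIs of both genes, Ly6c2 was 0.303% in decile 1, 3.32% in decile 6 and 14.6% in decile 10. Reads of the pair can be misassigned where the transcripts match, and the handling of such reads is not known from the labels. In Sftpc deciles 8 to 10, 91.0% of nuclei with a Ly6c2 UMI also had Ly6c1 (median depth 13911.5 UMIs), against 72.2% of nuclei without Ly6c2 (median 12492).

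The bases just before the outermost annotated start of both genes are shown because the start of Ly6c2 was one of the member starts whose chromatin was more open in Sftpc-rich nuclei (below). They are from RefSeq, build GRCm38.p6, minus strand, at chr15:75112067-75112221 for Ly6c2 and chr15:75048921-75049087 for Ly6c1. Capitals mark bases that the alignment of the pair did not match, and 99 of 134 aligned bases (73.9%) were identical.
Ly6c2: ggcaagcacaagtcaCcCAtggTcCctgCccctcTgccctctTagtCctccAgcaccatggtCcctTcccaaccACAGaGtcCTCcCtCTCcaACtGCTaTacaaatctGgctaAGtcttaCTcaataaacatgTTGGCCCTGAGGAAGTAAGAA
Ly6c1: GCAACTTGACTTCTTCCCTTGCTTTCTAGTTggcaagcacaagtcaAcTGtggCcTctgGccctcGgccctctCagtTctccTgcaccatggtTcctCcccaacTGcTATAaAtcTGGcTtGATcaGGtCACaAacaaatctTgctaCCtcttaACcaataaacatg

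Tspan11 (chr6:127887509-127953031) belongs to the tetraspanins, which organise other proteins in membranes. Its decile 10 levels were 0.772, 0.932, 0.862 and 0.650 UMIs per 10000 in libraries A to D, against 1, 1, 8 and 4 UMIs in decile 1. The libraries were again near each other, with D lowest, and the pooled rise was 65.6-fold (38.8 to 121). Its start peak was 1.84-fold more open in Sftpc-rich nuclei, and the 137 bases before the start, chr6:127887372-127887508 on the plus strand of the same build, hold none of the 7 short motifs searched (given with the accessibility results).
Tspan11: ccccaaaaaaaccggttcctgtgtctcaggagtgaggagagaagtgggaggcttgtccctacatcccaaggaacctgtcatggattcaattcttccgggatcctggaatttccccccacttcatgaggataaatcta

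Entpd1, the surface enzyme that breaks down extracellular ATP and ADP (chr19:40612366-40741602), had decile 10 levels of 0.365, 0.531, 0.544 and 0.479 UMIs per 10000 in libraries A to D. Its decile 1 levels were 0.0659, 0.0281, 0.0451 and 0.00289 in that order, the last from 1 UMI. The pooled rise was 14.7-fold (10.6 to 20.9). It was smallest in A, 5.54-fold (2.85 to 11.8), where the top level was lowest and the bottom level highest.

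Il33 (chr19:29925113-29960718) encodes an alarmin, a cytokine of the IL-1 family that is stored in nuclei and released on injury. Its decile 10 levels were 0.351, 0.915, 0.687 and 0.403 UMIs per 10000 in libraries A to D, so B and C lay above A and D with no overlap of their intervals. Its decile 1 levels were 0.102, 0.0281, 0.0564 and 0.101 in that order. The pooled rise, 7.92-fold (6.30 to 10.1), was the smallest of the 9, and the single libraries gave 3.44, 32.5 (from 3 UMIs in decile 1; 10.8 to 160), 12.2 and 3.98-fold. The receptor gene Il1rl1 had 0 UMIs in decile 10 and 1 in decile 1, so no fold is given.

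Of the transporters, Slco4c1, an organic anion carrier (chr1:96816270-96872193), had decile 10 levels of 0.989, 1.35, 1.66 and 1.41 UMIs per 10000 in libraries A to D. The pooled rise was 19.1-fold (15.4 to 23.9), with A lowest at the top of the ranking. Slc24a4, a potassium-dependent sodium and calcium exchanger (chr12:102128727-102267133), stood at 0.281, 0.418, 0.418 and 0.465 in decile 10 and rose 19.7-fold (13.1 to 31.1). Atp6v1c2, a form of the C subunit of the proton pump that acidifies organelles (chr12:17284721-17325386), stood at 0.561, 0.688, 0.741 and 0.675 in libraries A to D and rose 11.2-fold (8.75 to 14.5). Its decile 1 held 1, 2, 42 and 26 UMIs in that order, so the folds were 93.7 (16.3 to 3746) and 36.7 (9.84 to 309) in A and B, on 1 and 2 UMIs, and 9.38 and 8.98 in C and D, which hold nearly all airway secretory nuclei (below). Its widely used partner form Atp6v1c1 was at 0.524 in decile 1 and 0.425 in decile 10. Inpp4b, which removes a phosphate from a signalling lipid made downstream of PI3-kinase (chr8:81342266-82134312), stood at 0.688, 0.801, 1.27 and 0.958 in libraries A to D and rose 12.5-fold (10.1 to 15.6), while its relative Inpp4a went from 0.330 to 0.280.

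The stretch before the start of Slc24a4 is shown because the peak over it was the other start peak past 2-fold. It is the 250 bases at chr12:102128477-102128726, plus strand, same build, with none of the 7 motifs searched.
Slc24a4: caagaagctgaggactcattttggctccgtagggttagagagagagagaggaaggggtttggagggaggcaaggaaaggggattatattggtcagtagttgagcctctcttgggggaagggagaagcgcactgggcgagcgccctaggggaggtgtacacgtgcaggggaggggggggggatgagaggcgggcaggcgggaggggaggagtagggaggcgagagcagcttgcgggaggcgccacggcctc

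The rise was not even along the ranking. Sftpc itself was at 6.53 UMIs per 10000 in decile 1, 66.7 in decile 5, 402 in decile 7 and 1386 in decile 10. Adam19 was at 0.122 in decile 6, 0.386 in decile 7 and 0.776 in decile 8, and the other members except Ly6c2 also made most of their rise between deciles 6 and 8. Ly6c2 was at 0.0487, 0.140 and 0.292 in those deciles and 0.544 in decile 10. Slc24a4 was earliest, with a decile 7 level 0.733 times (0.640 to 0.837) that of deciles 8 to 10, and Ly6c2 latest, at 0.334 times (0.275 to 0.402). Library B went the other way, with Slc24a4 at 0.184 times (0.0724 to 0.388) and Ly6c2 at 0.467 times (0.288 to 0.723). Library B was lowest at decile 7 for Adam19 (0.132), Slco4c1 (0.234), Il33 (0.122), Slc24a4 (0.0712), Atp6v1c2 (0.203), Inpp4b (0.224) and Entpd1 (0.122), though not for Tspan11 or Ly6c2.

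At the very top the members parted from each other and from Sftpc. Between deciles 9 and 10 Sftpc rose 1.42-fold and Ly6c2 1.29-fold (1.14 to 1.47), the latter mainly in library C, where it rose 1.66-fold, against 1.03, 0.918 and 1.24 in A, B and D. Entpd1 fell to 0.710 times (0.632 to 0.797) its decile 9 level and was lower in all 4 libraries, at 0.516, 0.597, 0.744 and 0.838 times (0.662 to 1.06 in D). Inpp4b was at 0.758 times (0.699 to 0.821), with 0.536, 0.773, 0.928 and 0.607 in libraries A to D, the intervals of B and C including 1. Adam19 was at 0.828 times (0.753 to 0.910), with 0.822, 0.868, 0.962 and 0.655 in libraries A to D, where only the interval of D excludes 1. Il33 was at 0.445 times in A and 0.592 in D, and at 1.32 in B and 1.16 in C, so its direction differed between libraries. Sftpc takes 13.9% of all UMIs in decile 10 and 9.73% in decile 9, which lowers every other gene's share of the total by construction.

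**Figure D1:**
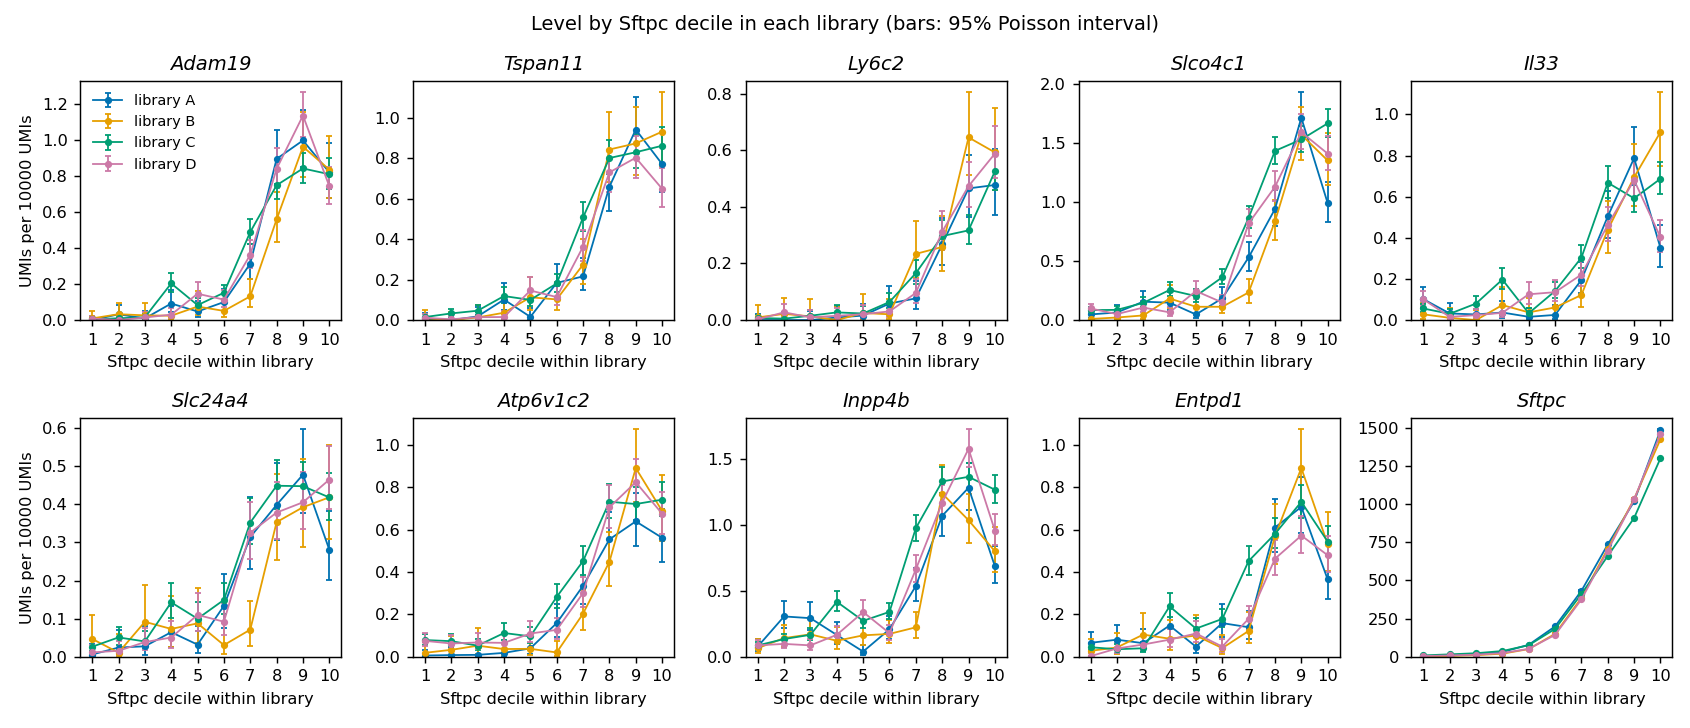
Level of each member and of Sftpc (vertical axis, UMIs per 10000 UMIs, linear, own scale per gene) in each Sftpc decile (horizontal axis) of libraries A to D; points are summed levels and bars 95% Poisson intervals. The members are low up to decile 6, with small rises in libraries C and D. Summed over the 9, library C was at 1.71 in decile 4 (Inpp4b at 0.418), 1.85 in decile 6 and 7.52 in decile 10. Library D was at 1.35 in decile 5 and 6.37 in decile 10. The members climb through deciles 7 and 8. After that Ly6c2 stays high or rises, while Entpd1, Inpp4b and Adam19 are lower in decile 10 than in decile 9 in each library.

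Sftpc level alone did not fix the members' level. Nuclei of Sftpc deciles 8 to 10 were split, within each library, into 3 equal groups by the summed UMIs of 18 type I genes per total, called type I-low, middle and type I-high; this split was chosen with the values known and is a description. The type I-high group had 125.9 UMIs per 10000 of the type I list and the type I-low group 28.6, while Sftpc was at 1023 and 978, a ratio of 1.05. All 9 members were at least 2-fold lower in the type I-high group, at 0.0992 to 0.242 times the type I-low group. Of 12562 genes 5.72% were at least 2-fold lower and 5.3% at least 2-fold higher. The members were chosen from these nuclei for being high with type II RNA, so nothing is read from that share. Summed over the 9, their level was 11.8 UMIs per 10000 in the type I-low group, 7.18 in the middle and 1.78 in the type I-high group. The share of nuclei with no UMI of any member was 1.53%, 6.66% and 38.2% in the same order. Median depth was 13623.5 UMIs per nucleus in the type I-low group and 12324.5 in the type I-high group, and doublets (2 nuclei under 1 barcode) were not searched for; without the 5% of nuclei with the most UMIs in each library, 9 of 9 members were still at least 2-fold lower.

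Il33 was lowest, at 0.0992 times (0.0805 to 0.121), with 0.0358, 0.102, 0.137 and 0.0690 in libraries A to D. Adam19 stood at 1.86, 1.35, 1.32 and 1.65 UMIs per 10000 in the type I-low nuclei of libraries A to D and at 0.134, 0.159, 0.174 and 0.153 in the type I-high nuclei, with no overlap, or 0.107 times (0.0907 to 0.126), and was between 0.0721 times (A) and 0.132 times (C) in the single libraries. Inpp4b fell from 2.25 to 0.250, or 0.111 times (0.0971 to 0.127). These 3 were at most 0.153 times in every library. Ly6c2 changed least, at 0.242 times (0.203 to 0.288), and also spread most, from 0.0565 in B (6 UMIs in the type I-high group) to 0.334 in D. Entpd1 was at 0.144, Atp6v1c2 at 0.145, Tspan11 at 0.160, Slc24a4 at 0.186 and Slco4c1 at 0.210 times.

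The classic type II genes, measured the same way, covered a wider range. Of the 22, 14 were at least 2-fold lower in the type I-high group, 0 were at least 2-fold higher and 8 lay between. Sftpc is among the 8, and it also set the deciles from which these nuclei were taken. Lyz2, the lysozyme gene, was at 0.0527 times and Chil1 at 0.0816, below any member, and Lamp3, a lamellar body membrane protein, was at 0.171. The surfactant protein genes Sftpb (0.435), Sftpa1 (0.426) and Sftpd (0.675) and the transcription factor gene Etv5 (0.534) fell less than any member. The protease gene Ctsh was higher, at 1.95 times.

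**Figure D2:**
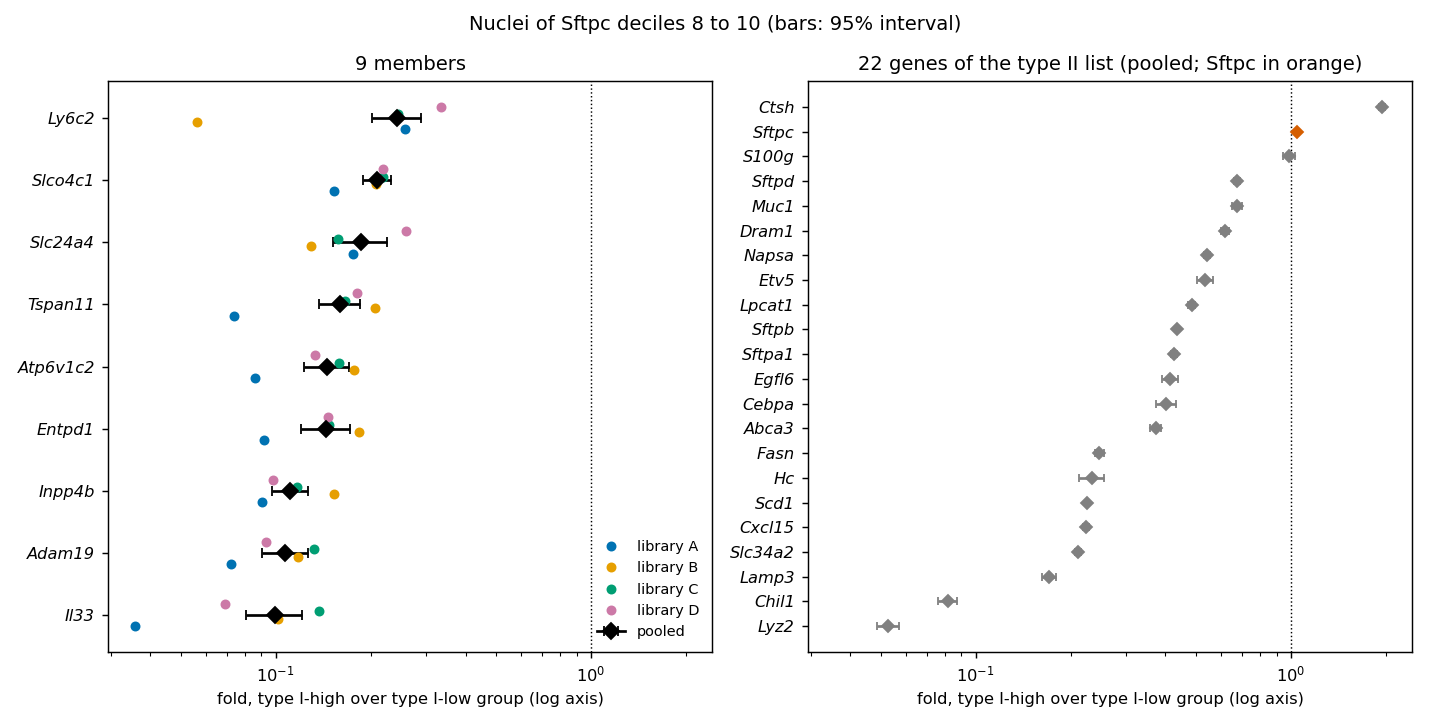
Fold of the type I-high over the type I-low group among nuclei of Sftpc deciles 8 to 10 (horizontal axis, log scale), on the left for the 9 members pooled (black diamonds, 95% intervals) and in libraries A to D (coloured points), on the right for the 22 genes of the type II list, pooled. All member points lie well left of 1 in every library, while Sftpc, which set the deciles, lies at 1.05.

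The same split by 15 transitional genes (keratins, Cdkn1a and others) gave lower members too, from 0.156 times for Adam19 to 0.327 for Tspan11, with Sftpc at 0.952. In Sftpc deciles 5 to 7 the members in the type I-high group were at 0.0310 times (Adam19) to 0.140 times (Ly6c2), with Sftpc at 0.723. Il33 was at 0.0829 times there but at 0.702 times (0.217 to 2.22) in library B, on 7 against 8 UMIs.

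Members were found together in single nuclei more often than the product of their frequencies. Each nucleus was thinned to 3000 UMIs (256 shallower nuclei left out), and the expected number of nuclei with both genes was summed over strata of library and Sftpc decile. Of 36 pairs, 35 were seen at least 1.2 times the expected number and 36 above 1, with a median of 1.68. Of 70348 pairs of a member with any other gene, each with at least 20 nuclei expected, 11.2% were seen at least 1.2 times the expected number. The members were picked together from these nuclei for being high with type II RNA, so nothing is read from the difference. With the type II list without Sftpc it was 89 of 189 pairs (47.1%), with a median of 1.19. Adam19 and Slc24a4 were seen together in 100 nuclei against 46.8 expected, 2.14 times (1.74 to 2.60). Slc24a4 with Entpd1 (2.06), Inpp4b with Entpd1 (2.01) and Adam19 with Inpp4b (2.00) followed. The weakest pair was Ly6c2 with Slc24a4, 28 nuclei against 23.5 (1.19 times, 0.793 to 1.73), and Ly6c2 was also in the next weakest pairs, with Entpd1 (1.23), Il33 (1.25) and Slco4c1 (1.27). Those with Slc24a4, Entpd1 and Il33 have intervals that include 1. With all UMIs the medians were 1.65, 1.46, 1.48 and 1.51 in libraries A to D, all above 1. What part of these ratios goes with the type I list, with which all members fell among nuclei alike in Sftpc, was not tested.

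The median nucleus had UMIs of 0 members in Sftpc deciles 1 to 6, of 1 in decile 7, 3 in decile 8 and 4 in deciles 9 and 10. In decile 10, 13.9% of nuclei still had none (32.2% after thinning). Library A stood apart there, with a median of 2 members and 27.6% of nuclei with none, against 4 members and 10.4%, 10.2% and 12.4% in libraries B to D.

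**Figure D3:**
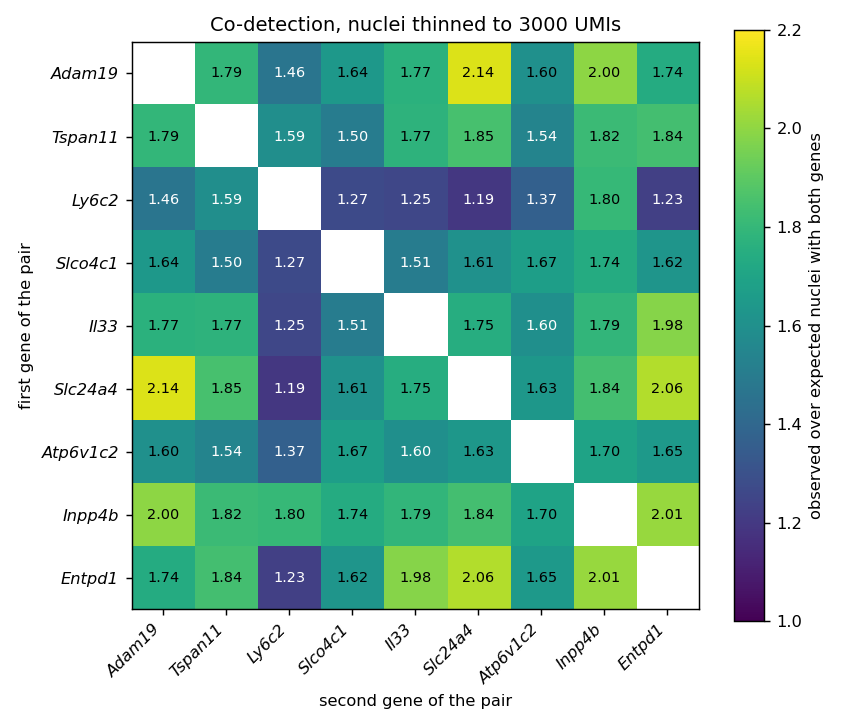
Nuclei with a UMI of both genes over the number expected within library and Sftpc decile, for each of 36 pairs (colour scale and printed values, nuclei thinned to 3000 UMIs; both axes list the 9 members). Values run from 1.19 to 2.14, and the Ly6c2 row holds the lowest.

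Shares of nuclei with a UMI were compared between Sftpc-rich and Sftpc-poor nuclei. The Sftpc-poor nuclei were not free of type II RNA. The type II list without Sftpc was at 34.1 UMIs per 10000 in decile 1, 42.3 in decile 3 and 392 in decile 10. In Sftpc deciles 8 to 10 (2161 nuclei, median 13010 UMIs) a UMI was found in shares from that of Il33 (23.2% to 26.9%, exact binomial) to 59.1% for Slco4c1 (57.0% to 61.2%); after thinning these 2 were 11.3% and 29.2%. In deciles 1 to 3 (2157 nuclei, median 11497 UMIs) the shares ran from 0.881% for Ly6c2 to 7.60% for Inpp4b. Sftpc had a UMI in 99.8% of those nuclei, at 11.2 UMIs per 10000, and what part of that is free RNA was not tested.

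In 2 members the airway secretory nuclei stood above Sftpc deciles 1 to 3 taken as a whole. Airway secretory nuclei were not taken out of those deciles, and they were not chosen by Sftpc. Their Sftpc level was 26.3 UMIs per 10000, against 11.2 in deciles 1 to 3. These 109 nuclei (at least 200 UMIs of the airway secretory list; 1, 0, 53 and 55 in libraries A to D; median 15290 UMIs) had Slco4c1 in 44.0% (34.5% to 53.9%; 18.3% thinned) and Atp6v1c2 in 39.4% (30.2% to 49.3%; 8.26% thinned). Their levels were 0.533 and 0.399 UMIs per 10000, against 1.41 and 0.704 in Sftpc deciles 8 to 10 and 0.0857 and 0.0571 in deciles 1 to 3. The other 7 members had a UMI in 0.917% (Adam19, Entpd1) to 8.26% (Il33) of airway secretory nuclei. The threshold of 200 UMIs was set after the values were seen; 143 nuclei passed 100 UMIs and 94 passed 300.

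Ly6c2, Entpd1, Il33 and Inpp4b are also known from immune or endothelial cells. Of the defining genes of those cells, Ptprc had 18 UMIs over all nuclei, Cdh5 had 4 and Kdr 0, while the highest of both lists were Cd68 with 486, Pecam1 with 299 and Csf1r with 223. Nuclei with a Ly6c2 UMI had the 11 immune genes at 0.0569 UMIs per 10000 in sum, and nuclei without at 0.109. The 6 endothelial genes were at 0.0301 and 0.0391. For Entpd1, Il33 and Inpp4b too, both sums were lower in nuclei with the gene than in nuclei without, although a UMI of the immune list was seen in 10.9% of nuclei with Il33 and 8.82% without, and in 9.70% with Inpp4b and 8.85% without. A UMI of the endothelial list was seen in slightly more of the nuclei with the gene for each of the 4, most for Inpp4b (3.09% and 2.45%) and least for Ly6c2 (2.63% and 2.59%). What part depth has in these shares was not tested.

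Relatives of the members, listed by gene family, moved in both directions with Sftpc. Of 8 ADAM proteases tested, 1 was higher in decile 10 than in decile 1 (Adam19) and 3 were lower, among them Adam28 (0.0908-fold) and Adam12 (0.172-fold). Of 23 tetraspanins, 1 was higher (Tspan11) and 7 were lower, such as Tspan1 (0.158-fold) and Tspan5 (0.375-fold). Of 7 Ly6 genes, 1 was higher (Ly6c2) and 5 were lower, with Ly6a at 0.0193-fold and Ly6e at 0.299-fold. Of all genes 5.53% were higher and 19.5% lower. Each family's count of higher genes, here and in the next paragraph, includes the member itself. The members were chosen on this contrast, so nothing is read from those counts.

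Of 6 organic anion carriers, Slco4c1 and Slco2a1, a prostaglandin carrier (3.79-fold), were higher and 2 were lower. Of 5 IL-1 family genes Il33 was higher and Il18 lower (0.344-fold). Among 7 calcium exchangers Slc24a4 was higher and 2 were lower, one being Slc24a3 (0.335-fold). Of 21 proton pump genes 3 were higher, Atp6v1c2, Atp6v1g3 (2.63-fold) and Atp6v0a1 (2.47-fold), 2 were lower and 16 lay between. Of 14 phosphoinositide phosphatases Inpp4b was higher and 2 were lower. Among 13 enzymes and receptors of extracellular nucleotides Entpd1 and the adenosine receptor gene Adora1 (8.47-fold) were higher and 4 were lower, among them Nt5e (0.225-fold), whose enzyme acts on the product of Entpd1.

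The genes whose pattern was most like a member's over 40 points (4 libraries by 10 deciles; Pearson r of log2 of level plus 0.1, centred within library) were named by rule, the first 3 for each. Lamp3 was first for Tspan11 (r = 0.988) and Slco4c1 (0.984), and among the first 3 for Adam19, with Abca3 (0.981). The fatty acid synthase gene Fasn led for Atp6v1c2 (0.984). Mlc1 (0.984) and Elovl1, a fatty acid elongase (0.976), led for Ly6c2, the lipid uptake receptor gene Cd36 for Il33 (0.960), Chsy1 for Slc24a4 (0.972), Rapgef5 for Inpp4b (0.975) and Adam19 for Entpd1 (0.964). Between members r ran from 0.888 to 0.981. All points share the Sftpc ranking, so high values are built in.

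Open chromatin over the members changed much less than their RNA, as it also did over Sftpc (below). ATAC counts in peaks that overlap a gene or the 2 kb beside it, per 10000 ATAC counts, were compared between Sftpc deciles 8 to 10 (1813 nuclei with at least 1000 ATAC counts) and 1 to 3 (1967 nuclei). At least 1.2-fold higher were 5 of 9 members, Ly6c2, Adam19, Tspan11, Atp6v1c2 and Slco4c1, where 10.2% of 14760 genes were (8.33% were as much lower); the median was 1.39 over the members and 1.03 over all genes. Ly6c2 was 2.16-fold higher (1.72 to 2.73), from 2 peaks and 241 against 111 counts, with 1.81, 10.2 (18 against 2 counts; 2.45 to 91.0), 1.86 and 2.43 in libraries A to D. Adam19 was 2.13-fold higher (1.99 to 2.29), with 1.80, 3.18, 1.82 and 2.58 in libraries A to D. Tspan11 (1.57), Atp6v1c2 (1.53) and Slco4c1 (1.39) were above 1 in every library. Entpd1 was at 1.16-fold, Slc24a4 at 1.11, Il33 at 1.07 and Inpp4b at 1.03, although their RNA was 13.7, 13.8, 11.7 and 9.76-fold higher between the same deciles, in that order. The 1 peak over Ly6c1 was 1.81-fold higher (1.48 to 2.21).

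Gene sums hid single peaks that moved in both directions. Of 111 peaks over the members 108 had at least 30 counts; 23 were at least 2-fold more open in Sftpc-rich nuclei and 10 at least 2-fold less, where 4.91% and 12% of 108441 peaks were. The strongest was in Adam19, at chr11:46123008-46123931, inside the gene and 3973 bp before the nearest annotated start, with 186 counts against 21, 8.83-fold (5.61 to 14.6). It ranked 13 among all peaks tested by fold, with 9.33-fold in A, at least 3.79-fold in B (10 against 0 counts), 5.76-fold in C and 13.3-fold in D. Adam19 had 6 of 12 peaks at least 2-fold more open and 0 at least 2-fold less.

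Inpp4b, whose gene sum was flat, had 5 peaks more open and 5 less open among the 37 tested, 13.5% each, the less open share being near that of all peaks. Its strongest, chr8:81979019-81979925, lay 636457 bp downstream of the start and inside the gene, with 111 counts against 15, 7.38-fold (4.28 to 13.6), and 8.71, 4.55, 6.92 and 8.00-fold in libraries A to D. A group of 3 peaks between chr8:81849721 and chr8:81867677 went the other way, at 0.173-fold, 0.177-fold and 0.260-fold. Entpd1 was alike, with an internal peak at chr19:40665518-40666415 3.73-fold more open (2.75 to 5.13) and its start peak at 0.942-fold (0.855 to 1.04). Tspan11 had an internal peak at chr6:127896245-127896965 4.07-fold more open and one at chr6:127934882-127935841 at 0.294-fold.

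Start peaks themselves ranged from 0.606-fold to 2.49-fold. The start peak of Ly6c2, over the sequence printed above, was 2.49-fold more open (1.69 to 3.73; 95 against 38 counts), that of Slc24a4 2.13-fold (1.83 to 2.49) and that of Tspan11 1.84-fold (1.48 to 2.30). Il33 has 2 annotated starts with peaks, and they differed: the first was 1.44-fold more open (1.14 to 1.84) and the second, inside the gene, was at 0.606-fold (0.465 to 0.785). For comparison, the stronger of 2 Sftpc peaks, chr14:70523775-70524720, was 5.13-fold more open (4.38 to 6.04) and the other was at 0.619-fold. Summed over these 2 peaks Sftpc was 1.63-fold higher (1.49 to 1.78), while its RNA was 90.7-fold higher between the same deciles.

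The 250 bases before each annotated start of the members were searched on both strands for 7 short motifs: CACTTG or CTCAAG (NKX2), TGTTTAC or TGTTTGC (FOXA), TTGCNNAA (C/EBP), GGAAGT (ETS), GGAATG (TEAD), ACAATG or ACAAAG (SOX) and TGANTCA (AP-1). None of the matches overlapped a match of another motif. NKX2 letters were found at a start of 3 of 9 members and in 22.6% of 32851 promoters, FOXA letters in 2 of 9 and 7.29%, TEAD letters in 2 of 9 and 12.6%, and each of the other 4 in 1 of 9, against 9.56% of promoters for C/EBP, 19.7% for ETS, 25.2% for SOX and 6.75% for AP-1. Members with several starts had several chances of a match, so these counts are descriptions only.

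**Figure D4:**
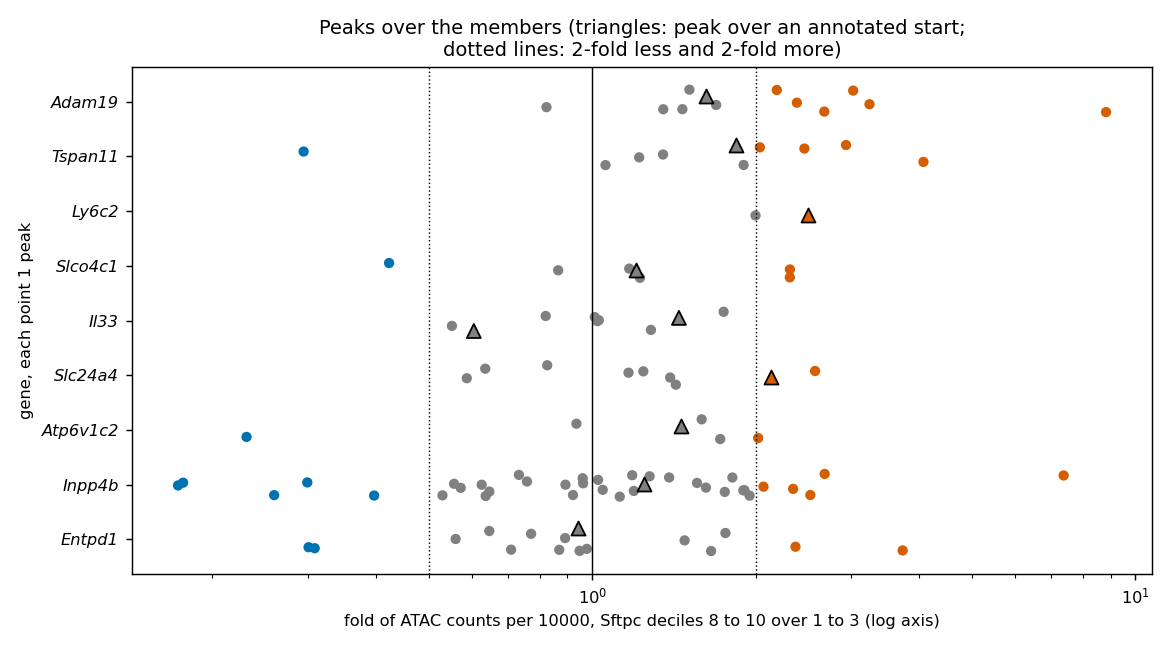
Fold of ATAC counts per 10000 between Sftpc deciles 8 to 10 and 1 to 3 (horizontal axis, log scale) for the 108 member peaks with at least 30 counts, by gene (vertical axis); each point is 1 peak, triangles are peaks over an annotated start, and colour marks peaks at least 2-fold more (orange) or less (blue) open. Adam19 peaks lie mostly to the right of 1, while Inpp4b has 5 on each side past 2-fold.

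Within Sftpc deciles 8 to 10, accessibility also went with the type I split, more weakly than RNA. Of the 23 member peaks more open with Sftpc, 19 were below 1 in the type I-high against the type I-low group, 14 with an interval below 1, where 76% of the 5328 such peaks in all were below 1. At or below 0.5 were 5 of the 23 and 21.1% of all, so these counts are near the background. The 10 member peaks less open with Sftpc were all above 1, where 70% of 13008 were, but they hold only 11 to 47 counts and only 1 interval excludes 1, that of chr8:81866840-81867677 in Inpp4b (1.96, 1.01 to 3.94). The Adam19 peak ranked 13 was at 0.247 times (0.153 to 0.385) and the internal Entpd1 peak at 0.343 times (0.224 to 0.512), whereas the Entpd1 start peak was at 1.04. By gene sum, 5 of 9 members were at least 1.2-fold lower, where 7.83% of 14663 genes were. Adam19 was at 0.610 times (0.550 to 0.676), Il33 at 0.732, Tspan11 at 0.762 and Slc24a4 at 1.28 (1.15 to 1.42), the last higher although its RNA was lower. The start peak of Slc24a4 was lower, unlike its gene sum, at 0.662 times (0.529 to 0.828). Its other peak more open with Sftpc was at 1.47 times (0.798 to 2.75).

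Sox9 RNA was used to set nuclei apart whatever their label. At least 5 Sox9 UMIs were found in 312 nuclei, nearly all from C (197) and D (114); their median depth was 14368 UMIs against 10629.5 in nuclei with 0 Sox9 UMIs, and 191 of the 312 lay in Sftpc deciles 1 to 3. Within libraries C and D, with no matching on Sftpc, the members in these nuclei were at 0.297 times (Ly6c2) to 0.852 times (Il33) the level in nuclei with 0 Sox9 UMIs. Sftpc itself was at 0.487 times.

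Matched on library and Sftpc decile, the median of the 9 members was 0.986, and 1 was at least 1.5-fold lower and 0 at least 1.5-fold higher, where 14.9% and 8.58% of 13927 genes were. The lower one was Ly6c2, with 26 UMIs against 45.7 expected, 0.569 times (0.372 to 0.834). It was at 0.770 (0.470 to 1.19) in C and 0.305 (0.112 to 0.663) in D, so the call rests on D. Il33 was at 1.37 times (1.12 to 1.65), Atp6v1c2 at 1.34 (1.12 to 1.58) and Entpd1 at 1.26 (1.02 to 1.53), each above 1 in both libraries, with intervals that include 1 in D. Tspan11 was at 0.772 (0.603 to 0.974). Slco4c1 went apart, at 1.18 (0.997 to 1.38) in C and 0.640 (0.466 to 0.856) in D, and Adam19 (1.01), Slc24a4 (0.980) and Inpp4b (0.959) had intervals that include 1.

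**Figure D5:**
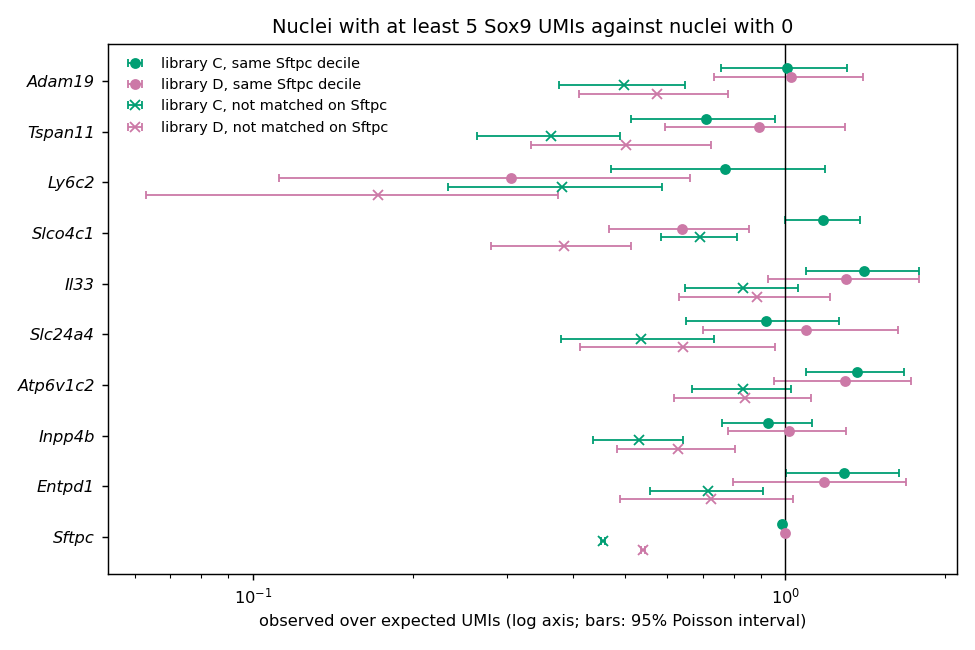
UMIs observed in nuclei with at least 5 Sox9 UMIs over those expected from nuclei with 0 (horizontal axis, log scale, 95% Poisson intervals) for the members and Sftpc, in libraries C and D, matched on Sftpc decile (circles) or not (crosses). All crosses lie left of 1, while circles lie on both sides, with Ly6c2 lowest in D at 0.305.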

How the data were processed

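Sorted nuclei were assayed for RNA and ATAC. Raw whole-number counts, of UMIs per gene and of ATAC signal per peak (116068 peaks), are what the authors deposited, pooled in 2 matrices that share barcodes. The submitters' processing notes list Signac 1.10.0, Seurat 4.3.0 and Cell Ranger 6.0.1, and as builds mm10 and GRCm38. How peaks were called and nuclei filtered upstream is not stated there, and lists of multiplexing oligos were not used. The matrix counts as 1 sample, so no p-value was computed. Nuclei needed at least 500 UMIs, 300 genes and under 20% mitochondrial UMIs; 25 were removed, and no doublet caller was run. In folds given with an interval or as a bound, a count of 0 was set to a floor of 3 counts per library or pool. No such fold was given where both counts were at or under 3. In RNA folds taken over all genes, and in peak folds with Sftpc taken over all peaks, counts under 3 were raised to 3. Intervals are exact (Poisson, binomial split or Clopper-Pearson) at 95% and cover counting error only. Gene positions (81.4% of genes matched) and promoters are from RefSeq GRCm38.p6; peak positions are as deposited. Members and lists were chosen with earlier results of these data known. The text names the 9 members, Sftpc and Sox9, in each gene family those past 2-fold (at most 4 by fold) and the closest relative, and the 3 genes most like each member; any other gene was picked with its values in view. The alternatives are in the closing section. Scripts were tested on simulated data and used Python 3.11.15, numpy 2.4.6, scipy 1.17.1, pandas 2.3.3 and matplotlib 3.10.9.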

Additional observations from a re-analysis of the deposited data

How the results depend on the processing

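With the type II list in place of Sftpc, other depths, filters, bins and denominators, without each library, or (added after seeing the data) without the 5% of nuclei with the most UMIs, 9 of 9 members stayed at least 2-fold higher in the top bin, with folds of 5.62 to 219. The count of all genes was 913 at 2-fold and 434 at 3-fold. The accessible members numbered 4 to 6 and the called pairs 30 to 36. Members at least 2-fold lower with the type I list were 9 of 9 in each alternative, all added after seeing the data. The Sox9 count was unstable: 1 member past 1.5-fold with 5 Sox9 UMIs, 0 with at least 3 or at least 1, 1 (higher, not lower) with 3 Sox9 UMIs per 10000, 0 at 2-fold and 6, all lower, without matching on Sftpc; without library C it was 2 and without library D 0. No paired analysis was possible because the matrix columns carry no replicate number. Low counts limit Ly6c2 and Slc24a4 and all values of library B, the smallest.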

Other observations

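A few nuclei low in the Sftpc ranking held several members. In Sftpc deciles 1 to 5, 48 of 3599 nuclei held at least 4 members at a summed level of at least 4 UMIs per 10000, 3, 6, 28 and 11 in libraries A to D, with 15 of the 28 in decile 4. The set was chosen by the members, so their own levels there are no result. Ly6c2 had 3 UMIs in the 48 nuclei (0.0598 UMIs per 10000, 0.0123 to 0.175), against 0.418 in Sftpc deciles 8 to 10. It was at 0.0121 in the remaining nuclei of deciles 1 to 5, a fold of 4.95 (0.988 to 15.4). Nothing is read from these Ly6c2 values. The other type II genes were mostly higher than in the remaining nuclei of deciles 1 to 5: 14 of 21 were at least 2-fold higher and 1 at least 2-fold lower, where 11.2% and 15.7% of 15023 genes were. The members that set these nuclei apart were picked for being high with type II RNA. Nothing is therefore read from these counts or from the folds that follow. Slc34a2, the phosphate carrier of type II cells, was 29.6-fold higher, Lamp3 25.5-fold, the complement gene Hc 24.1-fold, Egfl6 16.8-fold and Etv5 12.1-fold. Sftpc was at 43.2 UMIs per 10000 in these nuclei, 23.6 in the others and 1013 in deciles 8 to 10, and Lyz2 was at 0.319 and 0.234 in the first 2 sets. The type I gene Ager was at 0.184-fold and the keratin gene Krt8 at 0.0926-fold. Median depth was 9146.5 UMIs in the 48 nuclei and 10249 in the others.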
